A study of Mus musculus with 6 samples.

Results

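The genes described here encode the proteins of the cytosolic ribosome. They were chosen by name: every gene whose symbol begins with Rpl or Rps followed by a digit, plus Rplp0, Rplp1, Rplp2 and Rpsa, without the Rps6k kinases. The rule found 88 of the 16158 genes. Of these, 45 were large subunit proteins, 31 small subunit proteins, 8 near copies of a ribosomal protein gene, 3 pseudogenes, and 1, Rps19bp1, encodes a protein that binds a ribosomal protein. The rule used no measured value.

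The transcripts of single skin cells were counted in 6 mice of the NINJA strain, 6 to 12 weeks old, 2 in each of 3 groups. The cells came from skin treated with 4-OH-Tam in every mouse, so strain and this treatment are common to the groups. The groups are labelled NO_AG, AG and AG_CPI, which the series' design text calls Ag OFF, Ag ON and Ag ON/CPI; the labels do not spell out CPI. Infiltration of the skin by P14 cells, CD8 T cells with 1 transgenic receptor, had been examined in each mouse beforehand. The labels do not name the cells that make the antigen. Each mouse gave 1 library, so that mouse and library cannot be told apart.

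Each ribosome contains nearly every one of these proteins in a single copy, and cells make their mRNAs in large amounts. Many of these mRNAs begin with a C followed by a run of pyrimidines, the 5′ terminal oligopyrimidine tract, through which their translation is controlled together. In growing epithelium and in activated lymphocytes, ribosome production rises before cell division. Ribosomal protein genes also have many processed pseudogenes in the genome, and how reads shared with such copies were counted is not given in the sources used here, so that the level of a single member is uncertain.

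The annotated starts of some of the genes on which the results turn are shown to let this tract be looked for; an annotated start need not be the base where transcription begins. Each window holds 10 bases before and 20 from the annotated start, 5′ to 3′ on the gene's own strand, from RefSeq's promoter table for GRCm38.p6. Capitals mark the longest run of a C followed by at least 4 C or T. Rps15a and Rpl38 are shown as members higher in the CD8 T cells of AG_CPI mice, Rpsa as the leading T cell member, Rps2 and Rps26 as leading keratinocyte members, Rpl13a as the lowest in dendritic cells, Rpl36al as a near copy, and Eef1a1, the translation elongation factor, as a gene outside the family.
Rps15a (chr7:118116128-118116157, minus strand): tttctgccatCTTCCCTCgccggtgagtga
Rpl38 (chr11:114668570-114668599, plus strand): aagcctcgttCTTTCCCCgttctcttcggt
Rpsa (chr9:120127756-120127785, plus strand): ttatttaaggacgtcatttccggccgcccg
Rps2 (chr17:24720053-24720082, plus strand): gtcgagatctcgcgCTTCTTggagcactat
Rps26 (chr10:128626487-128626516, minus strand): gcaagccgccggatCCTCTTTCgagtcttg
Rpl13a (chr7:45128726-45128755, minus strand): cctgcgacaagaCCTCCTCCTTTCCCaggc
Rpl36al (chr12:69184048-69184077, minus strand): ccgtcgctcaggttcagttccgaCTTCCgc
Eef1a1 (chr9:78481705-78481734, minus strand): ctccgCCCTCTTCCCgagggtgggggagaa
In Rps15a and Rpl38 the run begins at the start base itself, and in Rpsa the window holds no such run. The table matched 65 of the 88 members, 56 of them among the 76 subunit proteins. A C at the start followed by at least 4 pyrimidines was found in 13 of the 56 (23.2%) and in 3.01% of the 27025 genes of the table. A C followed by at least 7 pyrimidines, beginning within 10 bases of the start on either side, was found in 23 of the 56 (41.1%) and in 9.43% of all genes. Only the gene's own strand was searched, and a match is a description of these letters.

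The 6 libraries held 1736 to 4972 cells, 5903724 to 24656382 unique molecular identifiers (UMIs, each standing for 1 captured mRNA molecule) and medians of 2527 to 4744 UMIs per cell. Of 21178 cells, 20464 were retained. Pairs of libraries shared 5 to 35 cell barcodes. In the mouse AG_CPI 1, 18.2% of keratinocyte-like cells had a UMI of the Y-linked Ddx3y, as did 15.2% of its macrophage-like and 2.48% of its CD8 T cells, while none of these cells of the other mice had one. Xist had a UMI in 1.14% of its keratinocyte-like, 2.60% of its macrophage-like and 53.9% of its CD8 T cells, against 65.0% to 89.4%, 59.1% to 69.9% and 67.5% to 76.3% in the other mice. The part of this mouse's difference in the AG_CPI comparisons below was not tested. The median subunit member had a UMI in 99.2% of retained cells, and the least often detected, Rpl13a, in 57.0%. Large subunit proteins took 54.0% of the members' UMIs and small subunit proteins 45.4%. The near copies took 0.568%, and some were almost absent: Rpl10l had 14 UMIs, Rpl3l 64 and Rpl39l 218 over all retained cells.

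Because the share of UMIs in these genes can move with depth, values are means over cells matched on UMIs: 3 bins of 1500 to 2000, 2000 to 3000 and 3000 to 5000 UMIs, weighted equally. Cells were grouped without using the members. Of the resulting classes, 6 had at least 5 cells in every bin in 4 or more mice: CD8 T, CD4 T, keratinocyte-like, dendritic/Langerhans-like, monocyte/macrophage-like, and 1 cluster led by Trdv4, the delta segment of skin gamma-delta T cells, which met the naming rule for no class and is called the Trdv4 cluster here. The labelled tissue was borne out by its markers: the keratin Krt14 lay between 65.4 and 99.2 UMIs per 10000 in the keratinocyte-like cells of the 6 mice and between 0.407 and 1.07 in their CD8 T cells.

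The ribosomal protein genes filled a larger part of the transcriptome in CD8 T, CD4 T and keratinocyte-like cells than in macrophage-like cells and the Trdv4 cluster. In CD8 T cells their summed share of UMIs was 25.9% and 22.8% in the NO_AG mice, 24.4% and 24.2% in the AG mice, and 23.1% and 23.7% in the AG_CPI mice (mean 24.0% ± 1.11, SD, n = 6). Keratinocyte-like cells held 27.1%, 24.0%, 24.0%, 22.6%, 25.7% and 24.8% in the same order of mice (24.7% ± 1.56, SD, n = 6). CD4 T cells lay at 23.0% ± 2.23 (SD, n = 5). These 3 classes overlapped with each other across mice.

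Dendritic/Langerhans-like cells held 17.5% ± 1.92 (SD, n = 4), macrophage-like cells 14.3% ± 1.48 (SD, n = 4) and the Trdv4 cluster 14.3% ± 0.881 (SD, n = 4). Every mouse of these classes lay below every mouse of the CD8 T and keratinocyte-like classes. The Trdv4 cluster, although it carried Cd3e, differed from the mean of the other classes measured in its own mouse by -11.0 to -3.95 percentage points. Another unnamed cluster, led by Ccr6 and Il13, lay at the opposite end, with 26.1% to 27.7% in 3 mice.

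Within mice, CD8 T cells lay 4.38 points above the mean of the other classes and keratinocyte-like cells 5.41 points above it, in 6 of 6 mice each (exact two-sided sign-flip test, p = 0.0312, the smallest that 6 mice allow; adjusted over the 6 classes, 0.0938). The mean difference was -7.77 points in macrophage-like cells, -7.40 in the Trdv4 cluster and -3.44 in dendritic cells, below 0 in 4 of 4 mice each (exact p = 0.125, the smallest that 4 mice allow). CD4 T cells lay 3.13 points above, in 5 of 5 mice (exact p = 0.0625, again the smallest possible). The other classes were those with enough cells in the same mouse, and they differed between groups. Macrophage-like cells had enough in AG and AG_CPI mice alone, and dendritic cells and the Trdv4 cluster in NO_AG and AG mice alone. CD4 T cells were too few in AG_CPI 1. The mean differences thus join unlike comparisons. No class passed 0.05 after adjustment, although every mouse of a class had the same direction. With at least 10 cells required in every bin, which leaves fewer classes to compare with, the difference of CD8 T cells was -0.712 points.

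**Figure D1:**
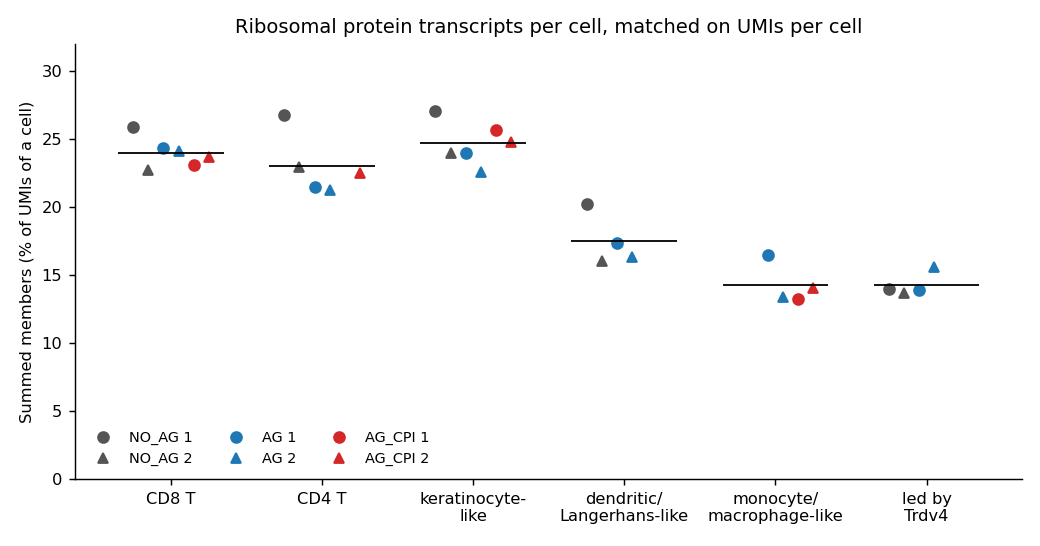
Summed share of the 88 ribosomal protein genes in the UMIs of a cell (vertical axis, percent, from 0) for 6 cell classes; each point is 1 mouse, colours are groups and black lines are class means. T cells and keratinocyte-like cells sit near 24%, and macrophage-like cells and the Trdv4 cluster near 14.3%.

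The share moved with depth in opposite directions in keratinocyte-like and CD8 T cells. In keratinocyte-like cells the mean share was 23.5% in the lowest UMI bin and 26.9% in the highest, higher in 6 of 6 mice (difference 3.34 points ± 1.33, SD, n = 6; exact p = 0.0312, adjusted 0.0938). In CD8 T cells it was 24.4% in the lowest and 23.2% in the highest bin, lower in 6 of 6 mice (difference -1.23 points ± 0.805, SD, n = 6; exact p = 0.0312, adjusted 0.0938). The CD8 T value mixes clusters: within single CD8 T clusters the share was higher in the highest bin in 12 of 17 pairs of mouse and cluster, some of which rest on under 10 cells in a bin. Cluster 7, a cycling cluster of low share described below, made up 4.08% of the CD8 T cells of the lowest bin and 7.14% of those of the highest in AG 1, 8.57% and 33.3% in AG 2, 5.54% and 33.9% in AG_CPI 1, and 5.26% and 12.4% in AG_CPI 2. Its part in the class difference was not tested.

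Single members were compared between classes with limma on log2(UMIs per 10000 + 0.1), with mouse as a term, over all 10082 genes that passed the filter on low values. Of the 88 members 84 passed it. The p-values of this fit measure the spread left after the mouse term, pooled over the classes, not the spread between mice. Past an adjusted p of 0.05, 68 members were higher in CD8 T cells and 1 was lower, where 30.0% of all genes were called, 15.0% as higher and 14.9% as lower. In keratinocyte-like cells 63 were higher and 2 lower, where 44.9% of all genes were called (23.7% higher, 21.1% lower). In CD4 T cells 29 were higher and 3 lower, where 28.3% of all genes were called (10.2% higher, 18.1% lower). At a Leiden resolution of 0.5, 27 were higher and 7 lower in CD8 T cells (19.1% and 21.8% of all genes). The Trdv4 cluster was not a compared class at this resolution or with doublets kept, so the classes set against each other were not the same. With at least 10 cells in every bin CD8 T and keratinocyte-like cells alone remained and were set against each other: 22 were higher and 17 lower in CD8 T cells (28.4% and 29.2% of all genes), and the reverse in keratinocyte-like cells. With doublets kept, and without the Trdv4 cluster among the classes, CD4 T cells had 10 higher and 25 lower (10.8% and 21.9% of all genes). With all cells and no matching these counts in CD4 T cells were 8 and 8 (9.75% and 23.0%), and with the deposited scaling 52 and 1 (14.2% and 16.2%). Fewer members were higher in CD4 T cells without AG_CPI 2 or without NO_AG 2, as given in the closing section. The median member differed by 0.41 log2 units in CD8 T cells, where the median gene differed by 0.05, and by 0.39 in keratinocyte-like cells, where the median gene also differed by 0.05.

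In the Trdv4 cluster 75 members were lower and 0 higher (22.9% of all genes called, 10.9% higher and 12.0% lower), with a median difference of -0.72 against -0.01 for all genes. In macrophage-like cells 33 were lower and 5 higher (30.7% of all genes called, 16.1% higher and 14.6% lower). In dendritic/Langerhans-like cells 16 were lower and 2 higher (31.8% of all genes called, 11.3% higher and 20.5% lower). The dendritic result depended on matching: without it, 0 members were lower and 27 higher, with 14.6% of all genes lower and 14.7% higher. Other settings gave more lower members: 30 with the deposited scaling and 38 when scaled to UMIs outside the members. It was 32 at a Leiden resolution of 0.5 and 48 with doublets kept, both without the Trdv4 cluster as a class. Shares of all genes for these settings are not given here. Without AG 1, 5 members were lower and 6 higher in dendritic cells (13.6% of all genes lower, 10.6% higher). The dendritic class of AG 1 carried more of the macrophage markers than that of the other mice: their sum was 72.5 UMIs per 10000 against 20.8 to 36.0, and Lyz2 was 47.2 against 3.92 to 12.5, next to 47.6 in the macrophage-like cells of AG 1. Its C1qa was 2.76, against 42.3 in those macrophage-like cells, and its summed dendritic markers were 51.5, against 55.8 to 76.4 in the dendritic class of the other mice. The part of these markers in the dendritic calls was not tested. Without AG_CPI 2, 14 members were lower in macrophage-like cells (9.54% of all genes lower). With the deposited scaling per cell in place of the trimmed mean scaling used here, the median of all genes moved by -0.16 in macrophage-like cells, and 62 members were lower and 1 higher there (21.2% and 11.8% of all genes).

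Among proteins of the small subunit, Rpsa and Rps15a set the T cells apart most. Rpsa, the gene of a small subunit protein also known as a laminin receptor, had in CD8 T cells 73.5 and 65.3 UMIs per 10000 (NO_AG mice), 64.1 and 57.2 (AG mice) and 47.7 and 55.6 (AG_CPI mice). In the monocyte/macrophage-like cells of the AG and AG_CPI mice it had 24.6, 17.5, 17.6 and 15.0. The levels of the CD8 T cells thus exceeded all 4 macrophage levels. Rpsa was higher in CD8 T cells by 0.95 ± 0.07 log2 units (SE; limma, adjusted p = 8.64e-12, 6 of 6 mice) and lower in macrophage-like cells, with a log2 difference of -0.76 ± 0.09 (SE; limma, adjusted p = 2.63e-08, 4 of 4 mice).

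Rps15a, another protein of the small subunit, was higher in CD8 T cells by 1.10 ± 0.09 (SE; limma, adjusted p = 2.17e-11) and in CD4 T cells by 0.68 ± 0.09 (SE; limma, adjusted p = 1.23e-06). Its mean level was 71.2 ± 11.7 UMIs per 10000 (SD, n = 6) in CD8 T cells, 43.5 ± 2.90 (SD, n = 6) in keratinocyte-like cells and 21.4 ± 2.82 (SD, n = 4) in macrophage-like cells. In order of level, CD8 T cells came before CD4 T cells (60.7 ± 3.78, SD, n = 5), whose ranges overlapped, while keratinocyte-like cells lay below both in every mouse. Rps13 and Rps27 were also higher in CD4 T cells, by 0.51 and 0.52, and Rps25 was lower, with a log2 difference of -0.38. Rps25 did not pass with the deposited scaling (limma, adjusted p = 0.0566).

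Keratinocyte-like cells were led by other members. Rps26 had 58.1 and 51.1 UMIs per 10000 in the NO_AG mice, 54.5 and 64.4 in the AG mice and 77.7 and 62.9 in the AG_CPI mice, a mean of 61.4 ± 9.39 (SD, n = 6), against 42.6 ± 8.24 (SD, n = 6) in CD8 T cells. It was higher than in the other classes by 0.94 ± 0.09 (SE; limma, adjusted p = 6.61e-11, 6 of 6 mice). Rps2, which lies at the entry of the mRNA channel, had 49.4 ± 4.12 (SD, n = 6) in keratinocyte-like cells against 32.9 ± 3.60 (SD, n = 6) in CD8 T cells, and was higher by 0.87 ± 0.07 (SE; limma, adjusted p = 1.67e-11). Of the large subunit, Rpl10a, Rpl28 and Rpl13 were higher by 0.90, 0.79 and 0.68. Rpl10, a late-joining protein of the large subunit, was lower, with a log2 difference of -0.21, and passed only narrowly (limma, adjusted p = 0.0425, and 0.113 with the deposited scaling).

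In macrophage-like cells, where 33 members were lower, the small subunit gene Rps29 was among the 5 that were higher. It had 28.8 and 24.6 UMIs per 10000 in macrophage-like cells of the AG mice and 32.2 and 42.5 in those of the AG_CPI mice, and was higher than in the other classes by 0.74 ± 0.11 (SE; limma, adjusted p = 3.80e-06, 4 of 4 mice). At a Leiden resolution of 0.5, without the Trdv4 cluster among the classes, its difference was 0.10 and did not pass (limma, adjusted p = 0.463). Rpl17, Rpl14 and Rpl21, proteins of the large subunit, were lower in macrophage-like cells, with log2 differences of -0.54, -0.50 and -0.56. In dendritic/Langerhans-like cells Rpl13a was lowest, at 1.48 and 0.775 UMIs per 10000 in the NO_AG mice and 0.191 and 1.18 in the AG mice, against 3.57 ± 1.17 (SD, n = 6) in CD8 T cells. Its log2 difference was -1.10 ± 0.23 (SE; limma, adjusted p = 0.000474). It was -0.53 without AG 1, and without matching on UMIs it was -0.27 and did not pass (limma, adjusted p = 0.131). Nor did it pass at a Leiden resolution of 0.5, where the Trdv4 cluster was not among the classes. Rpsa, Rps27, Rpl19 and Rps3 were also lower there. Without matching none of these 4 calls held: Rps27 was at -0.08 (limma, adjusted p = 0.620), and Rpsa, Rpl19 and Rps3 had small positive differences.

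In the Trdv4 cluster nearly all members were lower together. All 31 small subunit proteins and 42 of 45 large subunit proteins were lower, with Rps19 at -1.003 and Rps24 at -0.87 log2 units. The large subunit genes Rpl10 (-0.12), Rpl21 (-0.08) and Rpl13a (0.04) did not pass the test.

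**Figure D2:**
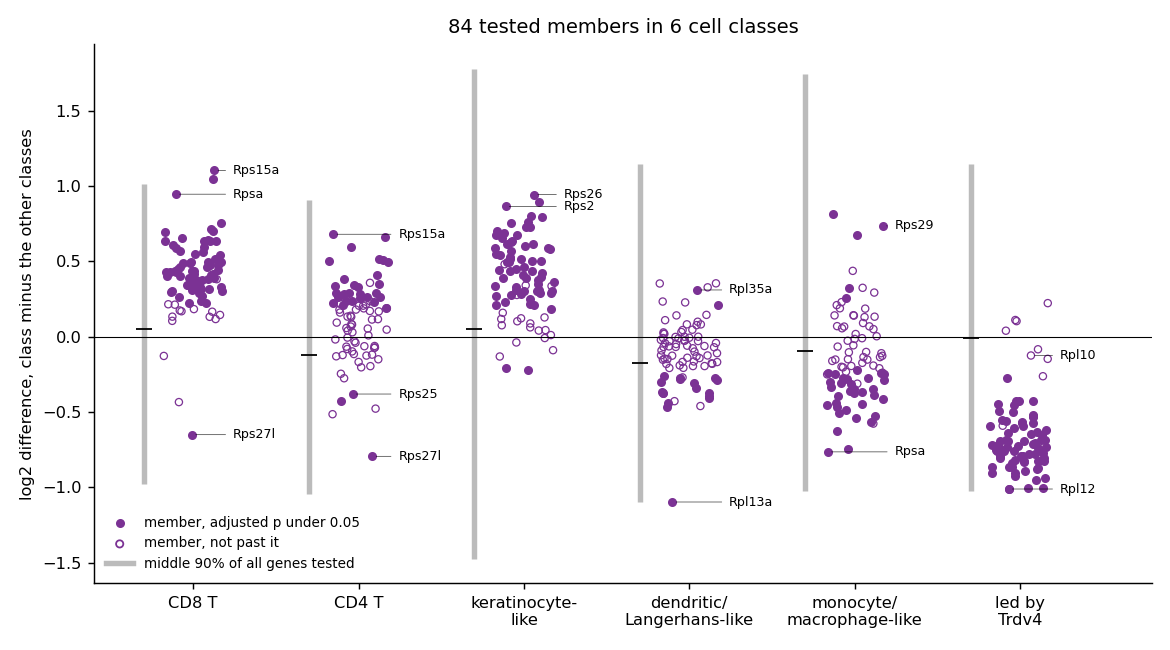
Log2 difference of each class from the mean of the other classes (vertical axis) for the 84 tested members; filled points passed an adjusted p of 0.05, grey bars span the middle 90% of all genes tested and black ticks mark their median. Most members lie above 0 in CD8 T and keratinocyte-like cells and below 0 in the Trdv4 cluster.

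Scaling each value to the sum of the family removes the shared difference and leaves unequal change among members. It also moves every other gene by the family's own difference, so the shares of all genes called are not a like background here. In the Trdv4 cluster the median gene was at 0.50 on this scale and at -0.01 with the trimmed mean scaling. On this scale 24 members were higher and 19 lower in keratinocyte-like cells (45.3% of all genes called). Rps26 (0.56) and Rpl10a (0.52) took more of the family, and Rpl10 (-0.59) and Rps29 (-0.51) took less. In CD8 T cells 14 were higher and 15 lower (29.3% of all genes called), among them Rps15a (0.66), Rpl13a (0.63) and Rpsa (0.51) upward and Rplp1 (-0.34) and Rps27a (-0.31) downward. In macrophage-like cells 21 were higher and 16 lower (30.3% of all genes called), with Rps29 at 0.90 and Rps28 at 0.42. The Trdv4 cluster had 15 higher and 13 lower (50.4% of all genes called), where Rpl21 (0.64) and Rpl10 (0.60) were higher. In CD4 T cells 14 were higher and 20 lower (28.9% of all genes called), and in dendritic cells 8 and 9 (31.0% of all genes called).

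**Figure D3:**
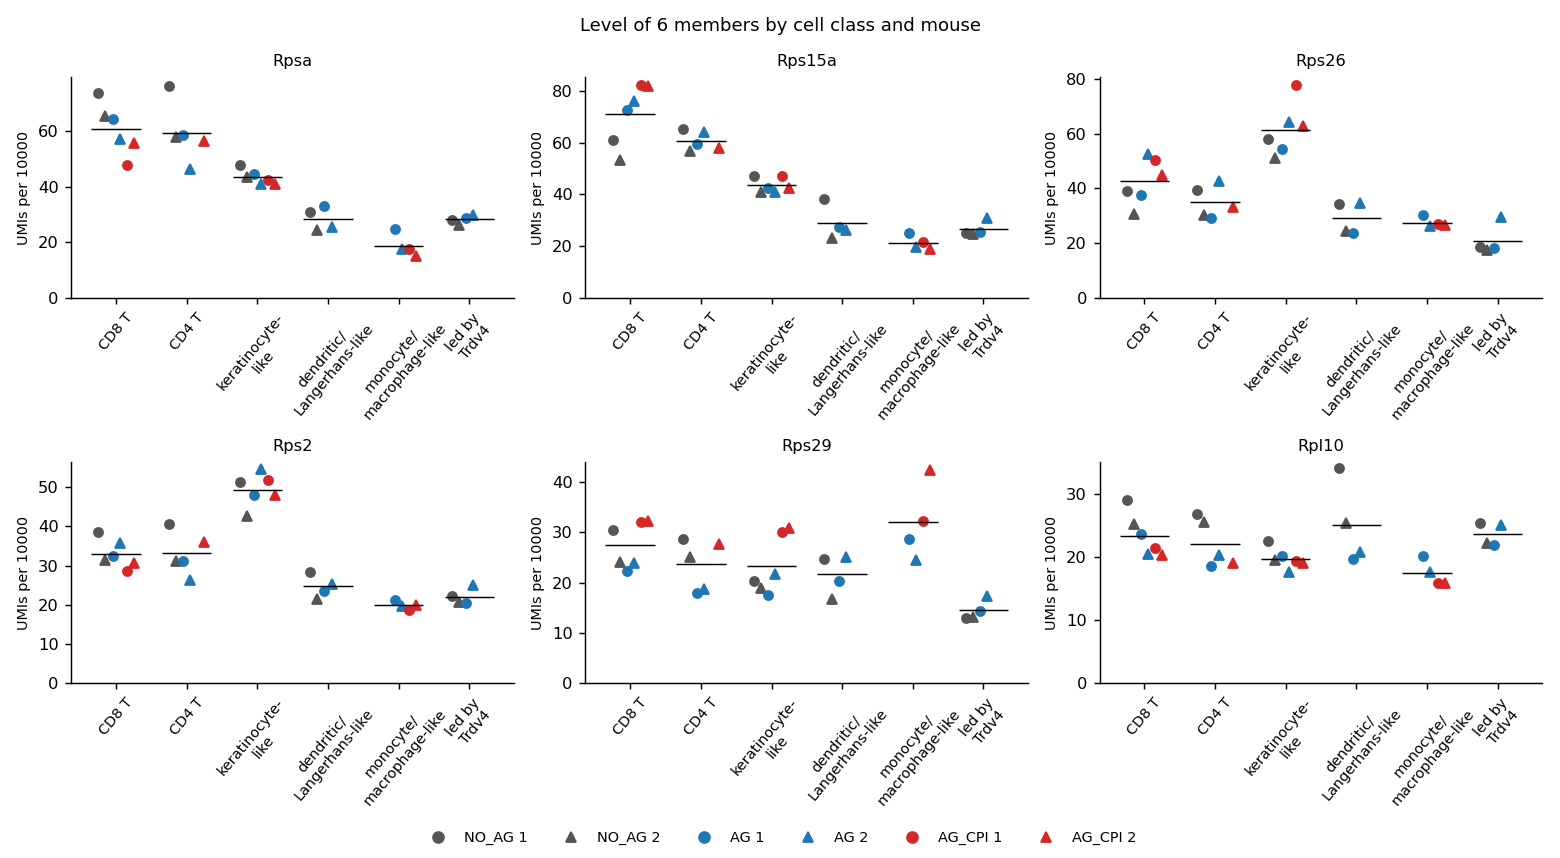
UMIs per 10000 of 6 members (vertical axes, each from 0) in 6 cell classes; each point is 1 mouse, colours are groups and lines are class means. Rpsa and Rps15a are highest in T cells, Rps26 and Rps2 in keratinocyte-like cells and Rps29 in macrophage-like cells, while the values of Rpl10 overlap between classes.

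Some structural groups were looked at by name. The stalk proteins Rplp0, Rplp1 and Rplp2, which recruit elongation factors, were all higher in keratinocyte-like cells (23.7% of all genes higher), and 1 of 3 was higher in CD8 T cells (15.0%); whether they differ from the rest of the family was not tested. Rpl5 and Rpl11, which bind the 5S RNA, were higher in both classes and lower in macrophage-like cells and the Trdv4 cluster. Of the near copies 5 of 8 were tested. Rps27l, a copy of Rps27 known as a target of p53, was lower in CD8 T cells (-0.65 ± 0.19, SE; limma, adjusted p = 0.00777) and CD4 T cells (-0.79) and higher in keratinocyte-like (0.68) and macrophage-like cells (0.67, adjusted p = 0.0253 by limma, and 0.211 with the deposited scaling). Rps27 itself was higher in CD4 T cells. Rpl22l1 was higher in CD8 T cells by 0.49 and in keratinocyte-like cells by 0.59. Pseudogenes were close to the filter: Rpl10-ps3 was called higher in macrophage-like cells (0.81, adjusted p = 0.0229 by limma) at 0.212 UMIs per 10000, and the deposited scaling ended the call (adjusted p = 0.0726).

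Other genes of translation could enter the grouping of the cells, unlike the members, so their counts are descriptions. Of 22 other mRNAs with a terminal oligopyrimidine tract, 11 were higher in CD8 T cells (15.0% of all genes higher), 10 in keratinocyte-like cells (23.7%), 6 in CD4 T cells (10.2%) and 1 in dendritic cells (11.3%). In the Trdv4 cluster 11 were lower (12.0% of all genes lower) and in macrophage-like cells 13 (14.6%), while 1 was lower in CD4 T cells (18.1%) and 1 in dendritic cells (20.5%). Eef1a1 had log2 differences of 0.57 in CD8 T cells and -0.62 in macrophage-like cells. Fau, which encodes a small subunit protein fused to a ubiquitin-like one, was lower in keratinocyte-like cells (-0.37), against the direction of most members. Of 31 genes of ribosome biogenesis 14 were higher and 0 lower in keratinocyte-like cells (23.7% and 21.1% of all genes), and 2 higher and 0 lower in CD8 T cells (15.0% and 14.9% of all genes). Among the 14, Npm1 and Ncl, nucleolar proteins, differed by 0.79 and 0.49, and Myc, which drives transcription of ribosome genes, by 1.46. Of 78 mitochondrial ribosomal protein genes 8 were higher and 1 lower in CD8 T cells, where 30.0% of all genes were called. In keratinocyte-like cells 10 were higher and 2 lower, where 44.9% of all genes were called.

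Between the groups the summed share could not be shown to change: with 2 mice against 2, the exact permutation test cannot go below p = 0.333. In CD8 T cells the AG_CPI mice lay 0.871 points below the AG mice without overlap, and in keratinocyte-like cells they lay 1.95 points above them without overlap (exact p = 0.333 each). At a coarser clustering (Leiden resolution 0.5) the CD8 T difference was 1.19 points, in the opposite direction. The drop was also not seen inside the CD8 T clusters that could be compared. In cluster 6 the share was 21.6% and 22.9% in the AG mice and 23.6% and 24.1% in the AG_CPI mice, a difference of 1.62 points without overlap (exact p = 0.333). The difference was 0.305 points in cluster 0 and 0.0633 in cluster 7, where the mice overlapped. Cluster 1, which had the highest share, made up 50.5% and 19.2% of the CD8 T cells in the AG mice and 4.26% and 5.83% in the AG_CPI mice. The part of the clusters in the CD8 T difference was not tested. Keratinocyte cluster 8 held 49.4% of the keratinocyte-like cells of AG 2 and was among the 3 largest clusters of no other mouse; the keratinocyte difference was 2.65 points without AG 1, 1.25 without AG 2 and 2.12 without cluster 8, an alternative chosen after seeing the data. In CD4 T cells the difference between AG and NO_AG mice was -3.51 points, without overlap (exact p = 0.333), but -1.61 without NO_AG 1 and -5.41 without NO_AG 2. The clusters behind it differed: cluster 10 held 34.2% and 26.0% of the CD4 T cells in NO_AG mice and 61.5% and 53.4% in AG mice, and the cycling cluster 7 held 8 of 38 and 10 of 50 cells against 6 of 169 and 6 of 116. Summed cycling markers in CD4 T cells were 16.7 and 13.2 UMIs per 10000 in the NO_AG mice and 4.28 and 5.55 in the AG mice. The part of these clusters and markers in the difference was not tested. The other 7 comparisons of a class between groups overlapped.

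For single members in CD8 T cells, 1 of 84 passed between AG and NO_AG mice in limma, where 1.38% of all genes were called. It was Rps15a, with 61.1 and 53.3 UMIs per 10000 in the NO_AG mice, 72.7 and 76.0 in the AG mice and 82.2 and 82.1 in the AG_CPI mice. The 3 groups did not overlap. The log2 difference between AG and NO_AG was 0.53 ± 0.11 (SE; limma, adjusted p = 0.0398). The call was lost when any mouse but NO_AG 1 was left out, and with the deposited scaling. It was also lost without matching, with doublets kept, without the filter on low values, and with the replicate number as a term. Scaling to UMIs outside the members ended it as well.

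Between AG_CPI and NO_AG mice 6 members were higher in CD8 T cells and 0 lower, where 3.41% of all genes were called. Rps15a was higher by 0.64 ± 0.11 (SE; limma, adjusted p = 0.00682). Rpl36al, a near copy of the large subunit gene Rpl36a, had 1.69 and 0.876 UMIs per 10000 in the NO_AG mice, 1.03 and 1.57 in the AG mice and 3.85 and 3.09 in the AG_CPI mice, and was higher by 1.54 ± 0.27 (SE; limma, adjusted p = 0.00693). The other 4 were the large subunit proteins Rpl39 (0.64), Rpl38 (0.57), Rpl24 (0.55) and Rpl37 (0.47). All 6 were higher in both AG_CPI mice than in both NO_AG mice. Without AG_CPI 1 none of the 84 passed (0.799% of all genes called), without AG_CPI 2 only 1 (1.01%), and without NO_AG 2 only 3 (4.22%), 1 of them lower. With the deposited scaling 2 passed (2.90%). Scaled to UMIs outside the members 1 passed, and without the filter on low values 0 passed, where shares of all genes are not given here. As shares of the family, 4 passed (2.46% of all genes called): Rps15a, Rpl36al, Rpl39 and Rpl38. The count on this scale was 0 without AG_CPI 1, 1 without AG_CPI 2 and 2 without NO_AG 1. On this scale 0 passed between AG and NO_AG (0.776% of all genes called) and 0 between AG_CPI and AG (0.0535%), where 5 and 14 had an unadjusted p under 0.05 by limma.

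These groups also differed in which CD8 T cells they held. Cluster 1 held 76.3% and 77.4% of CD8 T cells in the NO_AG mice and 50.5% and 19.2% in the AG mice, while cluster 0 held 57.9% and 61.1% of those of the AG_CPI mice. The summed macrophage markers in CD8 T cells were 0.561 and 0.473 UMIs per 10000 in the NO_AG mice, 0.878 and 1.04 in the AG mice and 2.42 and 1.99 in the AG_CPI mice, without overlap, next to 152 to 220 in macrophage-like cells. Of these markers Lyz2 was at 0 and 0.00729 in the NO_AG mice and at 0.146 and 0.0582 in the AG_CPI mice, and C1qa at 0.0394 and 0.0316 against 0.0505 and 0.0669. Summed keratinocyte markers in CD8 T cells were 5.09 and 8.07 in the NO_AG mice, 8.99 and 9.21 in the AG mice and 4.31 and 5.58 in the AG_CPI mice. The AG mice lay above both other groups, which overlapped. The part of these shifts in the calls was not tested.

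Between AG_CPI and AG mice 0 of 84 members passed in CD8 T cells, where 0.0669% of all genes were called and 13 members had an unadjusted p under 0.05 in limma. The smallest adjusted p was 0.101, of Rpl36al (1.35 ± 0.27, SE; limma). Members whose mice did not overlap numbered 58 of 84 in this comparison against 37.7% of all genes, 36 between AG and NO_AG against 41.5%, and 43 between AG_CPI and NO_AG against 48.4%. These comparisons share mice.

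In keratinocyte-like cells 0 of 84 members passed in each of the 3 comparisons, where 0.417% (AG against NO_AG), 0% (AG_CPI against AG) and 0.719% (AG_CPI against NO_AG) of all genes were called. In limma, 1, 9 and 11 members had an unadjusted p under 0.05. Rpl36al came closest, with 1.57 and 0.975 UMIs per 10000 in the NO_AG mice, 0.902 and 1.97 in the AG mice and 4.60 and 2.98 in the AG_CPI mice (AG_CPI against NO_AG, 1.65 ± 0.36, SE; limma, adjusted p = 0.0752). Members without overlap numbered 15, 32 and 36 of 84, against 42.1%, 34.6% and 46.2% of all genes. In the other 4 classes, where 1 comparison each was possible, 0 members passed: in CD4 T cells and the Trdv4 cluster 0% of all genes were called, in dendritic cells 0.288% and in macrophage-like cells 0.0443%. By limma 4, 2, 3 and 3 members of these classes had an unadjusted p under 0.05. Without AG 1, the Trdv4 cluster had 28 members higher and 2 lower, in a fit that called 20.9% of all genes, 8.03% as higher and 12.9% as lower. That fit left AG 2 as the only AG mouse. In its Trdv4 cluster Cd3e was at 36.6 UMIs per 10000, against 75.4 to 81.6 in the other mice, and the part of this in the counts was not tested. Members without overlap numbered 32 of 83 in CD4 T cells (40.0% of all genes), 59 of 85 in the Trdv4 cluster (39.9%), 24 of 83 in dendritic cells (42.1%) and 26 of 83 in macrophage-like cells (33.3%).

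Whether the changes differed between keratinocyte-like and CD8 T cells was tested on the difference within each mouse. In limma 0 of 84 members passed in the 3 comparisons, and 0 had an unadjusted p under 0.05, where 0.231%, 0% and 0.808% of all genes were called.

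Some members nevertheless lay higher in both AG_CPI mice than in both AG mice in each of the 3 classes where this could be compared, CD8 T, keratinocyte-like and macrophage-like. They were Rpl13a, Rpl27, Rpl36al, Rpl37, Rpl38, Rps21, Rps27, Rps28 and Rps29, 9 of the 83 members tested in all 3 (10.8%), and were chosen after their values were seen. Of the 5469 genes tested in all 3 classes, 0.933% met the same rule. Lower in all 3 lay 0 members and 1.04% of all genes. The classes of a mouse share its library, so they are not independent. Rpl38 had 25.1 and 28.7 UMIs per 10000 in CD8 T cells of the AG mice and 36.1 and 37.0 in those of the AG_CPI mice. In keratinocyte-like cells it had 21.3 and 24.1 against 34.3 and 30.8, and in macrophage-like cells 20.7 and 19.5 against 21.0 and 26.6.

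The macrophage values of Rpl38 were separated by little, while those of Rps29 ran higher in all 3 classes. Rps29 had 22.3 and 23.9 UMIs per 10000 in CD8 T cells of the AG mice against 32.1 and 32.2 in those of the AG_CPI mice, 17.5 and 21.7 against 30.1 and 30.8 in keratinocyte-like cells, and 28.8 and 24.6 against 32.2 and 42.5 in macrophage-like cells. Rpl36al differed by 1.35, 1.44 and 0.93 log2 units in the 3 classes and Rpl13a by 0.83, 0.68 and 0.71. The median annotated transcript length of the 9 was 394 bases, against 832.5 for the other 75 tested members. Of the 9, Rps27, Rpl38, Rps28, Rps29 and Rps21 lay between 345 and 394 bases, while Rpl37 (835) and Rpl13a (1047) lay above the median of the others. Over the 76 subunit proteins, the AG_CPI minus AG difference and the length had Spearman correlations of -0.24, -0.15 and -0.20 in the 3 classes, a description across genes of the same libraries.

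**Figure D4:**
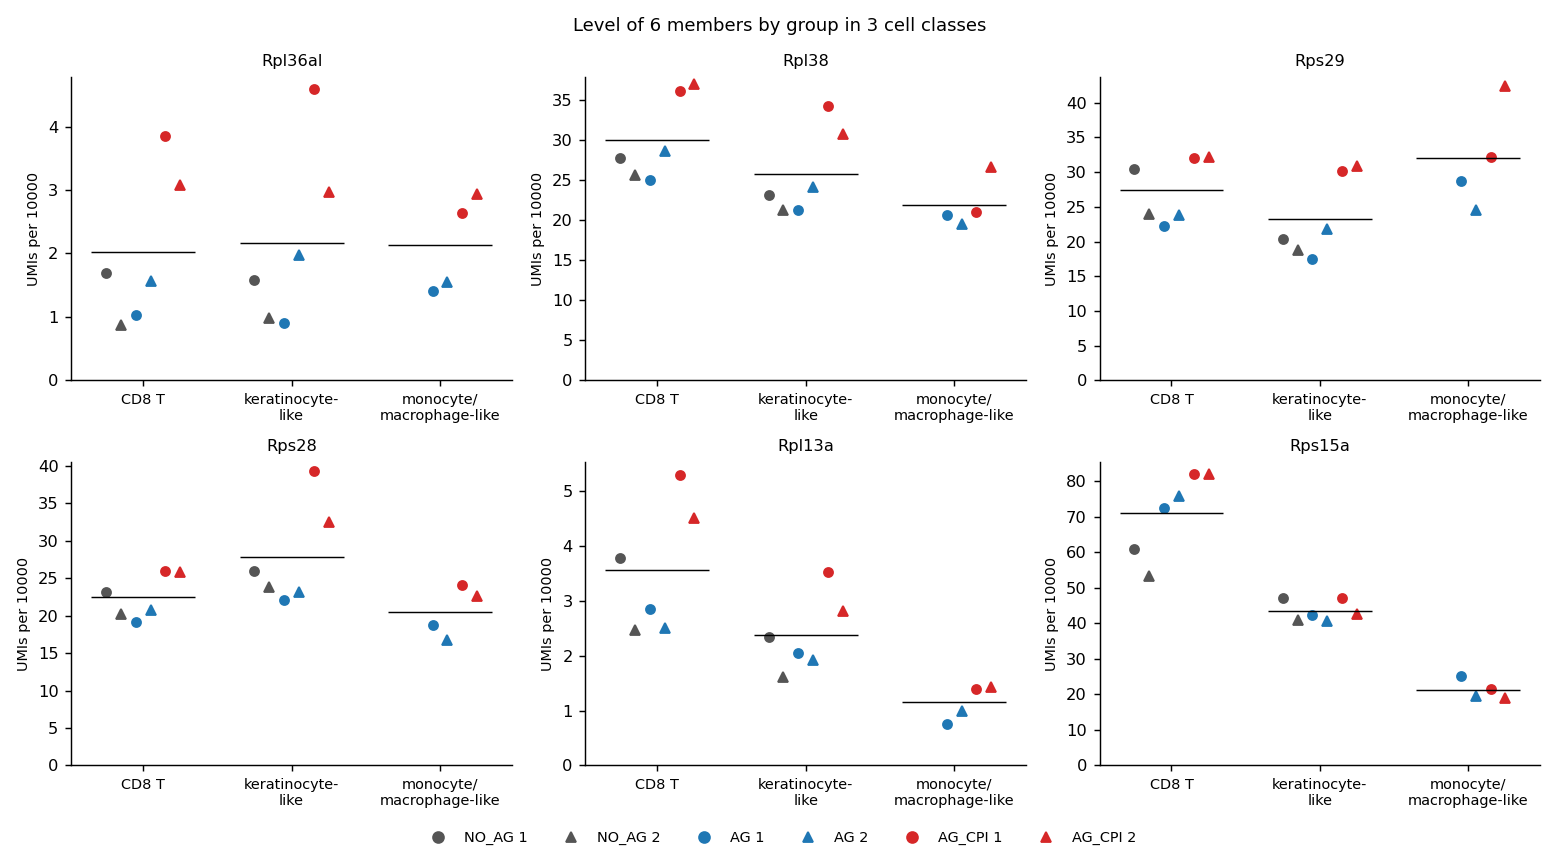
UMIs per 10000 of 6 members (vertical axes, each from 0) in CD8 T, keratinocyte-like and macrophage-like cells; each point is 1 mouse, colours are groups and lines are class means. Rpl36al, Rpl38, Rps29, Rps28 and Rpl13a are higher in both AG_CPI mice than in both AG mice of each class, while Rps15a separates the groups in CD8 T cells only in this plot.

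Within CD8 T cells the share of the family differed widely between clusters; no test was run on these clusters. In cluster 1, led by Trbv15 and Cd8a, it was 29.0% and 24.0% in the NO_AG mice, 27.0% and 29.9% in the AG mice and 28.4% in AG_CPI 2. It exceeded the other CD8 T clusters by 7.20 points on average, in each of the 3 mice that allowed the comparison. Cluster 7 was led by Gzma and Gzmk and carried the cell cycle genes, with summed cycling markers of 42.6 to 64.7 UMIs per 10000 against 0.634 to 2.73 in the other 3 clusters. Its share was 13.7% and 21.3% in the AG mice and 18.0% and 17.0% in the AG_CPI mice, a mean difference of -7.15 points from the other clusters, below 0 in 4 of 4 mice. Clusters 0 and 6 lay between, at 21.4% to 25.6% and 21.6% to 24.1%.

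Trbv13-3, the beta segment of the P14 receptor, is only a proxy for P14 cells, since other T cells can use it. In the AG mice CD8 T cells with a Trbv13-3 UMI held 20.6% and 22.9%, and those with none 25.9% and 25.2%. In the AG_CPI mice the values were 22.9% and 23.7% with it, and 23.4% and 23.7% without it. Cells with Trbv13-3 lay lower in both AG mice, with differences of -5.32 and -2.33 points, while in the AG_CPI mice the differences were -0.505 and 0.0719 points. Over the 4 mice the difference was -2.02 points ± 2.43 (SD, n = 4; exact sign-flip test, p = 0.25, where 0.125 is the smallest possible).

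**Figure D5:**
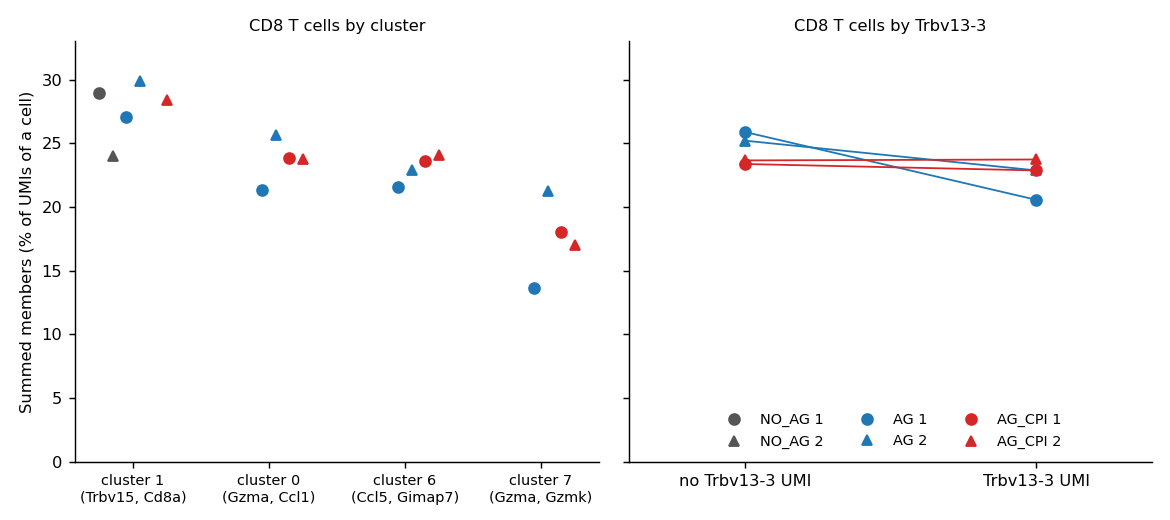
Summed share of the 88 genes (vertical axis, percent of UMIs, from 0) in CD8 T cells, by cluster on the left with its leading genes and by a Trbv13-3 UMI on the right; each point is 1 mouse and lines join the values of a mouse. Cluster 1 is highest and cluster 7 lowest, and the Trbv13-3 cells are lower in the 2 AG mice.

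Among keratinocytes, basal cells, the layer on the basement membrane, held 23.1% to 29.4% over 5 mice, 3.15 points above the mean of the other states on average and above it in 5 of 5 mice. Basal cells were not the highest state in every mouse: in NO_AG 2 suprabasal cells (26.1%) lay above basal cells (23.1%), and in AG 2 upper follicle cells (24.3%) lay above them (24.1%). Cycling keratinocytes could be measured in AG 2 alone, where they held 19.9%, a difference of -3.94 points from the other states. Bulge and germ cells of the hair follicle held 22.2% to 25.4% (4 mice), suprabasal cells 23.5% to 26.1% (3 mice) and upper follicle cells 18.7% to 24.3% (5 mice). Between AG and NO_AG mice, the one comparison possible in the states, 0 of 83 members passed by limma in basal cells (1.06% of all genes called), bulge and germ cells (0.188%) or upper follicle cells (0.327%), and 0, 1 and 0 members had an unadjusted p under 0.05.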

How the data were processed

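Single-cell libraries from the skin of 6 mice were made with a 10x 5′ kit, per the labels' protocols, and processed with Cell Ranger 3.1 against mm10, per the submitters' processing notes. The authors deposited log10-transformed UMIs per 10000, with 1 added before the logarithm, as worked out from the numbers themselves; the transform was inverted. Cells under 200 genes or over 20% mitochondrial UMIs were dropped, doublets called with Scrublet (in scanpy 1.11.5) were removed, and cells were clustered by Leiden at a resolution of 1 without the members. Of 67 clusters 46 were named, by marker scores; the scoring rule was set after the clusters' leading genes were seen. CD8 T and CD4 T cells were taken from alpha-beta T cell clusters by a UMI of Cd8a or Cd8b1 without Cd4, or the reverse, and without Trdc.

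Means per mouse and class were scaled by trimmed mean of M values (30% and 5% trimmed) and tested with limma 3.58.1 (R 4.3.3) on log2(mean + 0.1), for genes with a mean of at least 0.1, with Benjamini-Hochberg adjustment over all genes; no count model was used. On this scale fold changes of low genes are understated. The fits were also run on simulated data with independent noise for each gene. Those data lack any shared movement of the members, and no support for the calls is drawn from them. The labels call the samples biological replicates. In the fits between groups, p-values measure the spread between these mice. The fits between classes have mouse as a term. Their p-values measure the spread left after it, pooled over the classes, and are far smaller than the exact tests over mice allow.

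Members and lists were chosen with earlier results of these data known. Members are named where they had the smallest p past the threshold, up to 5 per direction, with all mice on one side, plus the near copies and fixed list genes.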

Additional observations from a re-analysis of the deposited data

Results flagged for a closer look

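Between AG_CPI and AG mice the summed share of the ribosomal protein genes differed in opposite directions in CD8 T cells, taken as 1 class, and keratinocyte-like cells. CD8 T minus keratinocyte-like, the share differed by 0.349 and 1.54 percentage points in the AG mice and by -2.61 and -1.15 points in the AG_CPI mice, so that both AG mice lay above 0 and both AG_CPI mice below it. The difference of the changes was -2.82 points. The pair was picked because the mice of these groups did not overlap in either class and the directions were opposite. The exact permutation test over 2 against 2 mice was therefore bound to give p = 0.333, the smallest it can give. The NO_AG mice lay at -1.21 and -1.20. At a Leiden resolution of 0.5 the CD8 T change itself was 1.19 points, in the other direction. Within CD8 T cluster 6 the AG_CPI mice (23.6% and 24.1%) lay above the AG mice (21.6% and 22.9%), the direction of the keratinocyte-like cells. Cluster 1, of high share, made up 50.5% and 19.2% of the CD8 T cells in the AG mice and 4.26% and 5.83% in the AG_CPI mice. The part of the clusters in the flagged difference was not tested.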

How the results depend on the processing

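Of 112 settings for the counts of members by class 94 stayed within 1.5 times, and of 186 for the counts by group 160. With all cells and no matching on UMIs, the share against the other classes was 4.01 points in CD8 T cells, 3.05 in CD4 T cells, 7.01 in keratinocyte-like and -6.07 in macrophage-like cells, all then past the threshold after adjustment (0.0469), since more classes of more mice entered; AG_CPI minus AG in CD8 T cells was -0.538, and AG_CPI minus NO_AG in keratinocyte-like cells -2.15. CD4 T cells then had 8 members higher, dendritic cells 0 lower (Rpsa 0.14, Rpl19 0.0011, Rps3 0.14) and 1 called between AG and NO_AG on either scale, and CD8 T cells 0 between AG and NO_AG. With at least 10 cells per bin fewer classes remained: the CD8 T difference was -0.712, with 22 members higher, and keratinocyte-like cells had 17. At a Leiden resolution of 0.5, CD8 T cells had 27 higher, their AG_CPI minus AG share was 1.19 and dendritic cells had 32 lower. Neither this run nor the one with doublets kept had the Trdv4 cluster among the classes compared. With doublets kept, CD4 T cells had 10 higher, dendritic cells 48 lower, and CD8 T cells 0 between AG and NO_AG. With the deposited scaling CD4 T cells had 52 higher, dendritic cells 30 lower, macrophage-like cells 62 lower, and CD8 T cells 0 between AG and NO_AG and 2 between AG_CPI and NO_AG. Scaled to UMIs outside the members, these counts were 57, 38, 68, 0 and 1. No filter on low values gave 0 in both CD8 T comparisons with NO_AG. A pseudocount of 0.5 gave 1 between AG_CPI and AG in CD8 T cells and 1 for AG against NO_AG as a share of the family. Without cluster 8, an alternative chosen after seeing the data, keratinocyte-like cells had 1 between AG_CPI and NO_AG. The cause of these moves was not tested unless stated. Where a count in this or the next paragraph has no share of all genes given anywhere, it only describes how the calls moved. Whether the members moved apart from all genes cannot be read from it.

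Leaving out 1 mouse gave 9 to 30 members higher in CD4 T cells (9 without AG_CPI 2, 12 without NO_AG 2), 5 to 19 lower in dendritic cells (5 without AG 1) and 14 to 39 lower in macrophage-like cells (14 without AG_CPI 2). Between groups it gave 0 to 1 called in CD4 T cells (1 without NO_AG 2), 0 to 1 (AG; 1 only without NO_AG 1) and 0 to 6 (AG_CPI; 0 without AG_CPI 1, 1 without AG_CPI 2, 3 without NO_AG 2) against NO_AG in CD8 T cells, 0 to 30 in the Trdv4 cluster (30 without AG 1), 0 to 2 in dendritic cells (2 without AG 1) and 0 to 1 for AG_CPI against NO_AG in keratinocyte-like cells (1 without AG 1 or AG 2). As shares of the family it gave 12 to 27 in the Trdv4 cluster (13 without AG 1, 12 and 17 without NO_AG 1 and 2) and 23 to 36 in macrophage-like cells (23 without AG 1 or AG_CPI 2) by class. By group it gave 0 to 1 in CD4 T cells (NO_AG 2 left out), 0 to 1 (against AG; NO_AG 1 or 2 left out) and 0 to 6 (against NO_AG; 0, 1 and 2 without AG_CPI 1, AG_CPI 2 and NO_AG 1) for AG_CPI in CD8 T cells, 0 to 5 in the Trdv4 cluster and 0 to 1 in dendritic cells (AG 1 left out), 0 to 1 (against AG; AG 2 left out) and 0 to 3 (against NO_AG; AG 1 or 2 left out) for AG_CPI in keratinocyte-like cells and 0 to 1 in macrophage-like cells (AG 2 left out). A lone mouse of a group was assumed to vary like the others.

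Nothing in the labels says that the replicate numbers pair the mice. Deviations of same-numbered mice correlated by -0.11, 0.03 and -0.18 in CD8 T cells and by 0.06, 0.05 and 0.00 in keratinocyte-like cells. With 1 difference per group, such correlations cannot exclude a shared day or litter. With the replicate block, AG against NO_AG in CD8 T cells had 0 members called, AG_CPI against NO_AG had 2 as shares of the family, and in keratinocyte-like cells 1 on either scale. Counting error at 24 to 1284 matched cells per mouse and class, and 2 mice a group, limit the precision.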
